A study of Gallus gallus with 9 samples.

Results

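The genes described here carry the symbols of 4 families that build and serve the primary cilium and the centrosome: IFT (intraflagellar transport), BBS (Bardet-Biedl syndrome), TCTN (tectonic) and CEP (centrosomal protein). They were taken by symbol from the platform annotation, as every gene whose symbol begins with IFT, BBS, TCTN or CEP followed by a number and that has a probe set naming no other gene. This gave 55 of the 13009 genes measured, namely 14 IFT, 7 BBS, 3 TCTN and 31 CEP genes. They were covered by 138 probe sets, and 35 of the genes had more than 1. Each gene was represented by its brightest probe set, chosen by the mean log2 signal of all 9 arrays. That mean is the measured value used in the choice, and no difference between cell fractions entered it.

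RNA came from the gonads of WL chicken embryos at 6.5 days, from which cells were sorted with magnetic beads (MACS) to give a PGC fraction, measured on 3 arrays, and a GSC fraction, measured on 6. PGC commonly abbreviates primordial germ cells. The labels leave GSC and WL unexplained and name neither the sorting antigen nor the sex of the embryos. All preparations shared the tissue, the age and the sort, no other treatment or genotype is given, and it is not stated whether replicates of a fraction came from different embryo pools. The p-values therefore cover the spread between preparations alone, which may be technical. Values are log2 signals from the Affymetrix Chicken Genome Array, and their differences are given as PGC minus GSC.

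The primary cilium is a single antenna-like projection of the plasma membrane, built on the older centriole of the centrosome, which signalling pathways such as Hedgehog use in many embryonic tissues. Intraflagellar transport moves cargo along its microtubules in trains made of an IFT-B complex, which runs outward with kinesin-2, and an IFT-A complex, which returns with dynein-2. The BBSome, a coat of several BBS proteins, rides these trains and carries membrane proteins out of the cilium, and the tectonic proteins belong to the transition zone, the gate at the base. CEP proteins are named after the centrosome rather than by 1 function. They include centriole assembly factors, scaffold proteins of the pericentriolar material, linker proteins, appendage proteins and cilium base proteins, so that many of them serve dividing cells as well.

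The sorted fractions were set against marker genes of the cells a gonad can hold. Among 12 measured markers of germ cells, 11 were called higher in PGC arrays, with summed linear signals of 2228 to 4290.2 in PGC arrays and 248 to 294 in GSC arrays, and PRDM1 was the one that did not pass. Of 14 gonadal somatic markers, 12 were lower, with summed signals of 1622 to 4279 in PGC arrays and 4530.4 to 6092 in GSC arrays. Of 10 mesonephric epithelial markers, 6 were higher and 3 lower, with summed signals of 957 to 1394 in PGC arrays and 200.2 to 279.9 in GSC arrays. Endothelial markers were lower in 9 of 12, with summed signals of 257 to 602 in PGC arrays and 756 to 1017 in GSC arrays. Erythroid markers were lower in 4 of 9, with 9583 to 12386 in PGC arrays and 12392 to 14907 in GSC arrays. Of 8 leukocyte markers 1 was higher and 3 lower, and of 7 smooth muscle markers 1 was lower. Over all genes, 22.5% were called higher and 19.5% lower. The part of any of these cells in the results below was not tested. PGC replicate 3 stood apart. Its mean over the germ cell markers was 6.37, against 7.15 and 7.04 in PGC replicates 1 and 2, and its mean over the gonadal somatic markers was 6.27, against 4.78 and 5.34. It correlated with PGC replicates 1 and 2 at 0.974 and 0.977, while those correlated with each other at 0.990. In most places where leaving out PGC replicate 3 changed a call, a direction or a count by much, both values are given. The plot of differences by gene shows both for every gene of the families. In sorted bulk preparations, a lower share of cells of a type and less RNA per cell cannot be told apart.

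Of the 55 genes, 22 (40.0%) were higher and 2 (3.64%) lower in the PGC fraction, and 31 did not pass, by limma at a Benjamini-Hochberg adjusted p under 0.05 over all 13009 genes. Over all genes 22.5% were called higher and 19.5% lower. The median log2 difference of the family was 0.24, with a range of -0.52 to 1.97, and that of all genes was -0.02. At least 2-fold higher were 9 of the called genes (16.4%, against 8.05% of all genes), and none was lower by as much (6.06% of all genes). These counts use the values as deposited. CEP19, one of the 9, is at least 1.94-fold when its dim GSC arrays are set at the reporter mark described below. The arrays of the fractions did not overlap in 18 genes that were higher (32.7%, against 19.7% of all genes) and in 2 that were lower (3.64%, against 16.7%), where 36.4% of all genes had no overlap in either direction. One of these 2, CEP120, did not pass. The family was chosen with these data in view, and these shares describe it without a test. Without PGC replicate 3, 30 of the 55 genes were higher and none lower, by limma, where 25.5% of all genes were called higher and 22.9% lower. Of these 30, 20 were also called with all arrays.

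**Figure D1:**
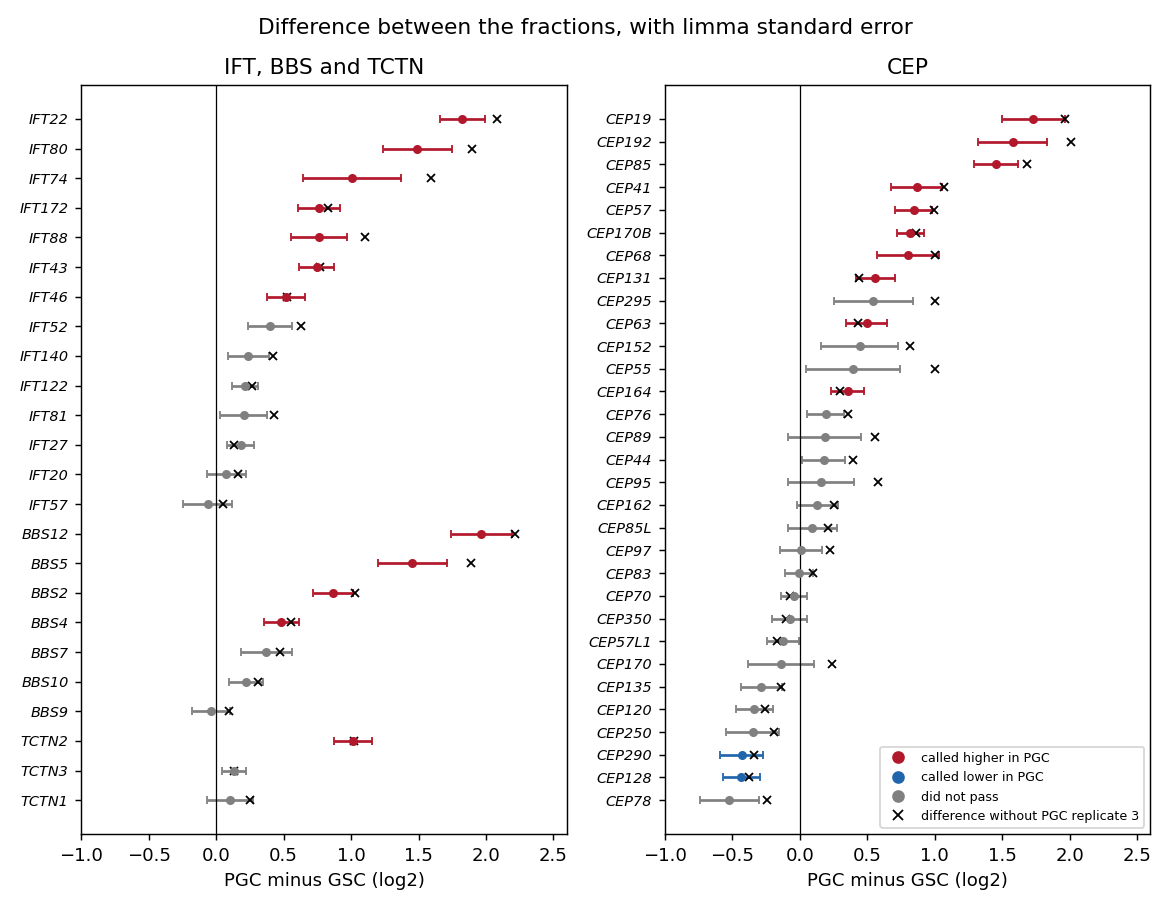
Log2 difference (PGC minus GSC, limma, with standard error) of each of the 55 genes by class, with genes past an adjusted p of 0.05 marked and the value without PGC replicate 3 beside it. Differences run from -0.52 for CEP78 to 1.97 for BBS12, and 22 of the 24 genes that passed lie to the right of 0.

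The intraflagellar transport genes came out with 7 of 14 higher (50%, against 22.5% of all genes) and none lower (against 19.5%). Their median log2 difference was 0.46. Without PGC replicate 1, 4 were higher, where 2298 of all 13009 genes were. Without PGC replicate 3, 10 were higher, where 25.5% of all genes were. IFT22, a small GTPase-like subunit of the IFT-B complex, measured 7.90, 7.81 and 7.09 in the PGC arrays, against a lowest, median and highest value of 5.63, 5.76 and 5.92 in the GSC arrays. All 3 PGC arrays stood more than 1 log2 unit above every GSC array. Its difference was 1.82 ± 0.17 (SE), which is 3.54-fold (adjusted p = 1.07e-05, limma). IFT80, an IFT-B subunit mutated in human skeletal ciliopathy, measured 8.50, 8.63 and 7.34 in the PGC arrays and 6.28, 6.67 and 6.99 (lowest, median, highest) in the GSC arrays. The groups did not overlap, with PGC replicate 3 closest to the GSC arrays. The difference was 1.49 ± 0.26 (SE), or 2.81-fold (adjusted p = 0.000746), and the other probe set of IFT80 was called higher as well.

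IFT74, which binds tubulin together with IFT81, measured 6.81, 6.83 and 5.06 in the PGC arrays and 4.72, 5.23 and 5.69 (lowest, median, highest) in the GSC arrays. PGC replicates 1 and 2 lay above every GSC array and PGC replicate 3 lay among them. The difference of 1.01 ± 0.36 (SE; adjusted p = 0.0428, limma) was 1.60 without PGC replicate 3 and lost its call in 7 of the 9 fits that left out 1 array, among which it ran from 0.71 to 1.60. IFT88, an IFT-B core subunit without which mouse cells form no cilium, showed the same arrangement, with 6.73, 6.90 and 5.78 in the PGC arrays and 5.49, 5.76 and 5.84 (lowest, median, highest) in the GSC arrays. Its difference was 0.76 ± 0.21 (SE; adjusted p = 0.0122), and 2 further probe sets of IFT88 were called higher. Leaving out PGC replicate 1 gave 0.63 (adjusted p = 0.0658) and leaving out PGC replicate 2 gave 0.54 (adjusted p = 0.0702).

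IFT172, a large peripheral IFT-B subunit, measured 5.61, 5.01 and 5.11 in the PGC arrays and 4.22, 4.53 and 4.75 (lowest, median, highest) in the GSC arrays. Here PGC replicate 3 lay between the other PGC arrays, and no GSC array reached the PGC range. The difference was 0.76 ± 0.16 (SE), or 1.70-fold (adjusted p = 0.0024, limma). The other probe set of IFT172, dim in both fractions, was not called. IFT43, a small subunit of the IFT-A complex, measured 7.37, 6.94 and 7.08 in the PGC arrays and 6.18, 6.41 and 6.56 (lowest, median, highest) in the GSC arrays. Among the 3 IFT-A genes with an IFT symbol it was the one that passed, at 0.75 ± 0.13 (SE; adjusted p = 0.000825), and the groups did not overlap. IFT46, an IFT-B subunit known in Chlamydomonas for carrying outer dynein arms, differed by 0.52 ± 0.14 (SE; adjusted p = 0.0107), and by 0.39 with an adjusted p of 0.0641 without PGC replicate 1.

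The other 7 IFT genes did not pass. Their log2 differences were 0.40 for IFT52, 0.24 for IFT140, 0.22 for IFT122, 0.20 for IFT81, 0.18 for IFT27, 0.08 for IFT20 and -0.06 for IFT57. IFT140 and IFT122 are core subunits of IFT-A. Among genes with an IFT symbol, 1 of 3 of the IFT-A complex (33.3%) and 6 of 11 of the IFT-B complex (54.5%) were higher. The share of all genes was 22.5%, and whether the complexes differ was not tested. Subunits under other symbols, such as WDR35 of IFT-A and CLUAP1 of IFT-B, are given further on. IFT81 is the partner of IFT74, and IFT20 also works at the Golgi. Without PGC replicate 3, IFT52 (0.63), IFT140 (0.42) and IFT81 (0.43) were called higher, with adjusted p-values of 0.0014, 0.0205 and 0.0277 by limma. IFT20, IFT27, IFT57 and IFT122 were not called in that fit, where IFT57 stood at 0.05.

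**Figure D2:**
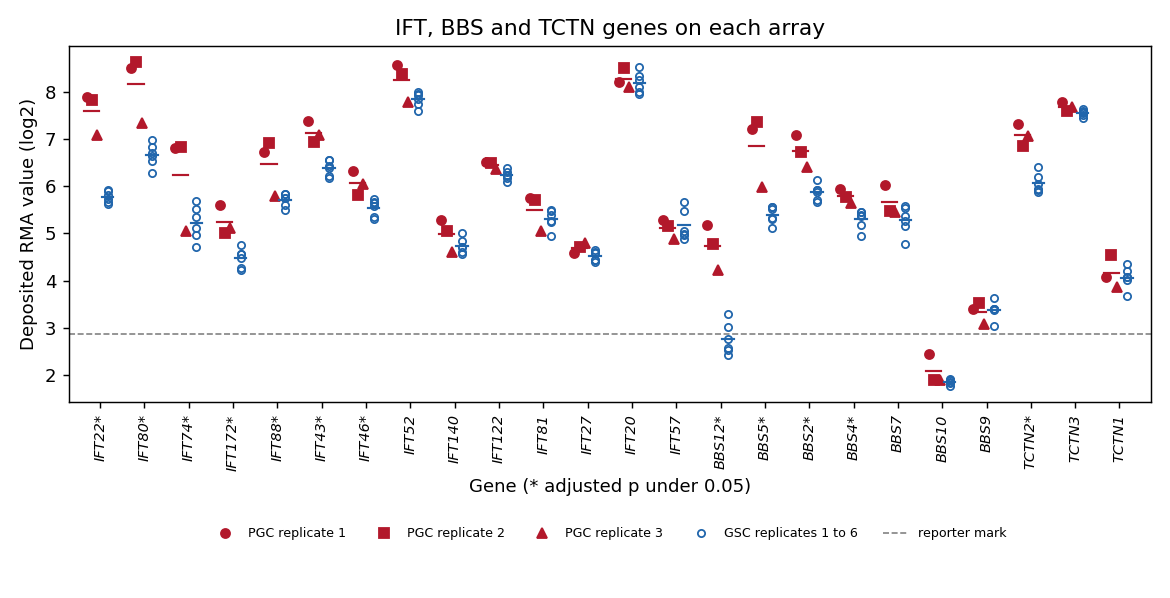
Log2 signal of the 24 IFT, BBS and TCTN genes on each of the 3 PGC and 6 GSC arrays, with short lines at the group means, asterisks for an adjusted p under 0.05 and a dashed line at the reporter mark of 2.88. Each gene is read against itself, since heights of different probe sets are not comparable, and in IFT22 all PGC points lie above 7 and all GSC points below 6.

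Among the BBS genes, 4 of 7 were higher (57.1%, against 22.5% of all genes) and none lower (against 19.5%). Their median log2 difference was 0.48. In all 4 the fractions did not overlap, which makes 57.1% of the BBS genes, where 19.7% of all genes were higher without overlap. Among the 2923 of all genes that were called higher, 2448 (83.7%) had no overlap, so this is usual for called genes. BBS12, a chaperonin-like protein that helps to assemble the BBSome, measured 5.18, 4.79 and 4.23 in the PGC arrays and 2.43, 2.67 and 3.29 (lowest, median, highest) in the GSC arrays. Its GSC values were dim. In 4 of 6 GSC arrays they lay below the reporter mark of 2.88, the 95th percentile of 57 RPTR control probe sets, so that the log2 difference of 1.97 ± 0.23 (SE; adjusted p = 5.55e-05, limma) stands for a rise of at least 3.39-fold, counted with those arrays set at the mark. BBS5, the BBSome subunit that binds phosphoinositides, measured 7.21, 7.37 and 5.98 in the PGC arrays and 5.11, 5.43 and 5.56 (lowest, median, highest) in the GSC arrays. The difference was 1.45 ± 0.26 (SE), or 2.74-fold (adjusted p = 0.000919), and its other 3 probe sets were not called.

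BBS2, a core subunit of the BBSome, measured 7.08, 6.72 and 6.42 in the PGC arrays and 5.67, 5.90 and 6.13 (lowest, median, highest) in the GSC arrays. The groups did not overlap, and the difference was 0.87 ± 0.15 (SE; 1.82-fold, adjusted p = 0.000802, limma). BBS4, a BBSome subunit that also sits on pericentriolar satellites, measured 5.94, 5.78 and 5.64 in the PGC arrays and 4.96, 5.38 and 5.45 (lowest, median, highest) in the GSC arrays. Its difference of 0.48 ± 0.13 (SE; adjusted p = 0.0117) was among the smaller that passed, and its other 2 probe sets were called higher as well. Without PGC replicate 1 the difference was 0.41 and its call was lost. Of the 5 BBSome subunits with a BBS symbol, 3 were thus higher, and TTC8, a subunit also called BBS8, had a difference of -0.03 (adjusted p = 0.814). BBS7 and BBS9, the other two, had differences of 0.37 (adjusted p = 0.141) and -0.04 (adjusted p = 0.86), the second being 0.09 without PGC replicate 3. A dimmer probe set of BBS7 and 2 of BBS9 were called higher, so for these genes the call depends on the probe set. BBS10, another chaperonin-like assembly factor, lay below the reporter mark on all 9 arrays. BBS1 is not listed by the annotation under that symbol and was not analysed here.

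The 3 tectonic genes, whose products interact at the transition zone, gave 1 higher (33.3%, against 22.5% of all genes) and 2 that did not pass. TCTN2 measured 7.32, 6.85 and 7.05 in the PGC arrays and 5.87, 6.00 and 6.40 (lowest, median, highest) in the GSC arrays. The groups did not overlap, PGC replicate 3 lay between the other PGC arrays, and the difference was 1.01 ± 0.14 (SE; 2.02-fold, adjusted p = 0.000217, limma). TCTN3 measured 7.77, 7.58 and 7.68 in the PGC arrays and 7.45, 7.55 and 7.62 (lowest, median, highest) in the GSC arrays, a difference of 0.13 ± 0.09 (SE; adjusted p = 0.263). TCTN1 measured 4.09, 4.55 and 3.87 in the PGC arrays and 3.67, 4.08 and 4.36 (lowest, median, highest) in the GSC arrays, with a difference of 0.10 ± 0.17 (SE; adjusted p = 0.674). Whether TCTN2 differs in its change from the other two was not tested.

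Of the 31 CEP genes, 10 were higher (32.3%, against 22.5% of all genes), 2 were lower (6.45%, against 19.5%) and 19 did not pass. Their median log2 difference was 0.18. Without PGC replicate 3, 15 were higher and none lower by limma, where 25.5% of all genes were higher and 22.9% lower. CEP19, which recruits the small GTPase RABL2 to the cilium base, measured 4.50, 3.64 and 3.37 in the PGC arrays and 1.78, 2.07 and 2.55 (lowest, median, highest) in the GSC arrays. All 6 GSC arrays were below the reporter mark and all 3 PGC arrays above it. The difference of 1.73 ± 0.24 (SE; adjusted p = 0.000167, limma) stands for at least 1.94-fold. CEP192, the pericentriolar scaffold protein that recruits the kinases PLK4 and Aurora A, measured 8.09, 8.23 and 6.86 in the PGC arrays and 5.91, 6.13 and 6.43 (lowest, median, highest) in the GSC arrays. Its difference was 1.58 ± 0.25 (SE), or 2.99-fold (adjusted p = 0.0005), and its other 3 probe sets were called higher too. CEP85, which binds the centriole duplication factor STIL, measured 8.51, 8.19 and 7.67 in the PGC arrays and 6.44, 6.66 and 6.80 (lowest, median, highest) in the GSC arrays. Its PGC arrays lay at least 0.87 log2 units above every GSC array, and the difference was 1.46 ± 0.16 (SE; 2.74-fold, adjusted p = 4.51e-05).

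CEP41, which is needed for tubulin glutamylation in the cilium, measured 6.30, 5.51 and 5.30 in the PGC arrays and 4.67, 4.83 and 4.96 (lowest, median, highest) in the GSC arrays. The groups did not overlap, and the difference was 0.87 ± 0.19 (SE; 1.83-fold, adjusted p = 0.00323, limma). CEP57, a protein of the inner pericentriolar layer, was higher by 0.84 ± 0.14 (SE), and its paralog CEP57L1 had a difference of -0.13 at values below the mark in both fractions. CEP170B measured 8.55, 8.32 and 8.31 in the PGC arrays and 7.42, 7.61 and 7.65 (lowest, median, highest) in the GSC arrays. It was higher by 0.82 ± 0.10 (SE; adjusted p = 7.53e-05), with 3 of its other probe sets called higher. CEP170, the subdistal appendage protein it resembles, measured 7.50, 7.45 and 6.33 in the PGC arrays and 7.01, 7.18 and 7.68 (lowest, median, highest) in the GSC arrays, and did not pass, at -0.14 (adjusted p = 0.686) and at 0.24 without PGC replicate 3 (adjusted p = 0.247). All 5 of its other probe sets had lower means in the PGC arrays, and one of them was called lower, at -1.38. With the mean of all its probe sets CEP170 was called lower, at -0.55 (adjusted p = 0.0136, limma), so its call depends on the probe set. Whether the paralogs differ in their change was not tested.

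The remaining rises were smaller or dimmer. CEP68, a centrosome linker protein, measured 4.64, 3.98 and 3.72 in the PGC arrays and 2.68, 3.43 and 3.61 (lowest, median, highest) in the GSC arrays, a rise of at least 1.71-fold (adjusted p = 0.0144, limma). Its difference was 0.54 without PGC replicate 1, where its call was lost. CEP131, a protein of the pericentriolar satellites, was higher by 0.56 ± 0.15 (SE; adjusted p = 0.00897), with its lowest PGC array just inside the GSC range. CEP63, a partner of CEP152 in centriole duplication, measured 5.31, 4.99 and 5.35 in the PGC arrays and 4.49, 4.67 and 5.15 (lowest, median, highest) in the GSC arrays. These groups overlapped, and the difference of 0.50 ± 0.15 (SE; adjusted p = 0.0218) lost its call when PGC replicate 1 (0.45) or PGC replicate 3 (0.43) was left out. The other 3 probe sets of CEP63 were not called. CEP164, the distal appendage protein that docks vesicles to the centriole, measured 3.21, 3.33 and 3.43 in the PGC arrays and 2.63, 3.02 and 3.11 (lowest, median, highest) in the GSC arrays. Its difference of 0.36 ± 0.12 (SE; adjusted p = 0.0379) lost its call in 5 of the 9 fits that left out 1 array, where it ran between 0.29 and 0.35. The other probe set of CEP164 had a mean of 3.07 in both fractions, above the mark. It was not called, at -0.004 (adjusted p = 0.986, limma).

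Both CEP genes that were lower had means below the reporter mark in each fraction, so no fold is given for them. CEP290, which bridges microtubules and membrane in the transition zone, measured 2.71, 2.14 and 2.14 in the PGC arrays and 2.46, 2.77 and 3.08 (lowest, median, highest) in the GSC arrays. The groups overlapped, and the difference was -0.43 ± 0.16 (SE; adjusted p = 0.0491, limma). Its call was lost in 7 of the 9 fits that left out 1 array, and all 8 probe sets of CEP290 had means below the mark. Without PGC replicate 3 the difference was -0.34 (adjusted p = 0.138, limma). CEP128, a subdistal appendage protein, measured 2.46, 2.47 and 2.30 in the PGC arrays and 2.59, 2.75 and 3.20 (lowest, median, highest) in the GSC arrays. Its groups did not overlap, and the difference of -0.43 ± 0.13 (SE; adjusted p = 0.0231) lost its call when PGC replicate 1 (-0.46) or PGC replicate 3 (-0.38) was left out. In all, 8 of the 55 genes (7 CEP genes and BBS10) had means below the mark in both fractions. By the brightest probe set, no fall among the brighter 47 passed, though CEP170 did with the mean of its probe sets.

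**Figure D3:**
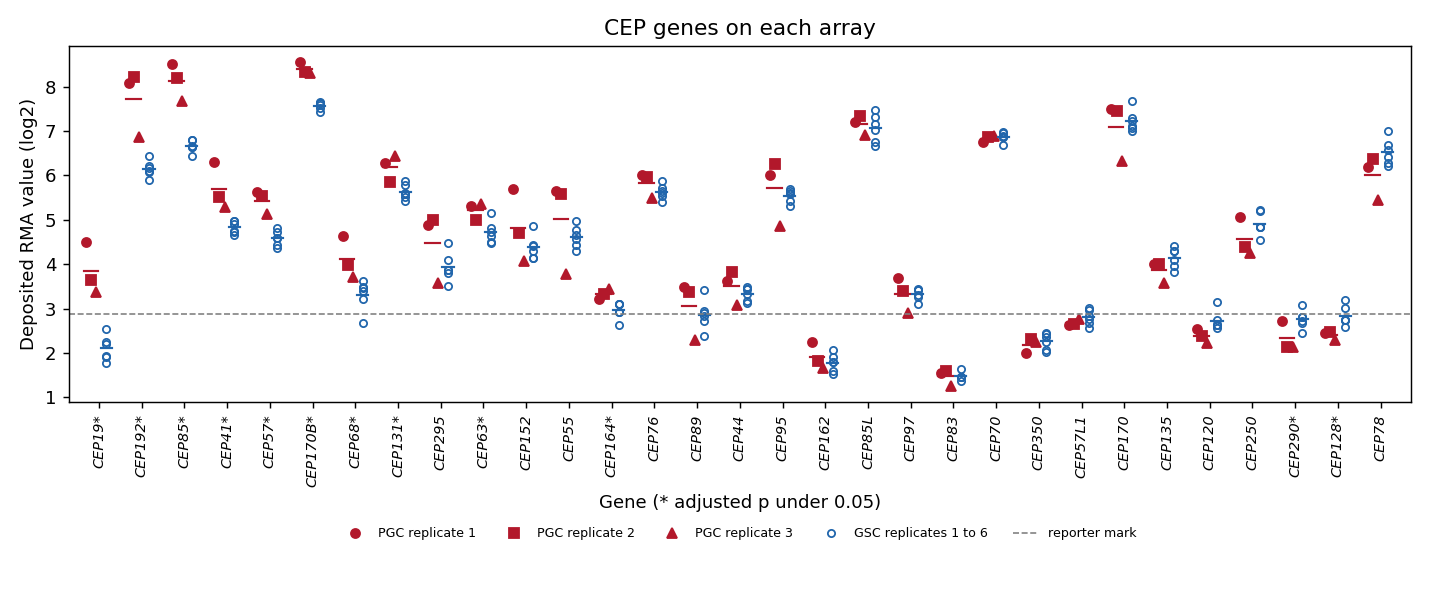
Log2 signal of the 31 CEP genes on each of the 3 PGC and 6 GSC arrays, with short lines at the group means, asterisks for an adjusted p under 0.05 and a dashed line at the reporter mark of 2.88. In CEP55, CEP95 and CEP170 the PGC point of replicate 3 lies below every GSC point while PGC replicates 1 and 2 do not.

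Several CEP genes that did not pass had widely spread PGC values. CEP55, a midbody protein of the last step of cell division, measured 5.66, 5.59 and 3.79 in the PGC arrays and 4.30, 4.61 and 4.98 (lowest, median, highest) in the GSC arrays. PGC replicates 1 and 2 lay above every GSC array and PGC replicate 3 below every one of them. The difference of 0.39 ± 0.35 (SE; adjusted p = 0.404, limma) was 1.00 without PGC replicate 3, with an adjusted p of 0.000324. Another probe set of CEP55, with means of 4.72 in PGC and 4.14 in GSC, was called higher with all arrays. Its difference was 0.57 (adjusted p = 0.018, limma over all probe sets). Its PGC SD was 0.23, against 1.06 for the probe set used, so the wide PGC spread of CEP55 depends on the probe set. CEP152, which recruits PLK4 to the parent centriole, measured 5.70, 4.71 and 4.07 in the PGC arrays and 4.14, 4.36 and 4.87 (lowest, median, highest) in the GSC arrays. Its difference of 0.44 was 0.82 without PGC replicate 3 (adjusted p = 0.0159). CEP295, which acts in the conversion of new centrioles to centrosomes, measured 4.89, 4.99 and 3.58 in the PGC arrays and 3.51, 3.87 and 4.48 (lowest, median, highest) in the GSC arrays. Without PGC replicate 3 its difference of 0.55 was 1.00 (adjusted p = 0.0016).

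CEP95 measured 6.00, 6.25 and 4.87 in the PGC arrays and 5.31, 5.60 and 5.69 (lowest, median, highest) in the GSC arrays, the same arrangement as in CEP55. CEP44, CEP76, CEP89 and CEP95 differed by 0.18, 0.19, 0.18 and 0.16 with all arrays. None of these passed by limma (adjusted p = 0.408, 0.300, 0.624 and 0.649). Without PGC replicate 3 they were called higher, at 0.40, 0.36, 0.56 and 0.58. Adjusted p-values were then 0.0228, 0.0349, 0.046 and 0.0029 by limma. In CEP89, 3 GSC arrays lay below the reporter mark. CEP76 restrains centriole reduplication in human cells, and CEP89 is a distal appendage protein. CEP250, the linker protein also called C-NAP1, measured 5.07, 4.39 and 4.24 in the PGC arrays and 4.55, 4.84 and 5.21 (lowest, median, highest) in the GSC arrays. Its difference of -0.35 (adjusted p = 0.183) was -0.60 and called lower without PGC replicate 1 (adjusted p = 0.0238), and -0.19 without PGC replicate 3 (adjusted p = 0.488). CEP78, a centriole protein, measured 6.19, 6.38 and 5.45 in the PGC arrays and 6.21, 6.49 and 6.998 (lowest, median, highest) in the GSC arrays. Its difference of -0.52 (adjusted p = 0.077) was -0.71 and called lower when PGC replicate 2 was left out (adjusted p = 0.0386), and -0.24 when PGC replicate 3 was (adjusted p = 0.318).

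CEP135, a cartwheel protein of the centriole, measured 3.99, 4.01 and 3.58 in the PGC arrays and 3.83, 4.19 and 4.42 (lowest, median, highest) in the GSC arrays, with a difference of -0.28 (adjusted p = 0.165, limma) that was -0.14 without PGC replicate 3. CEP70 and CEP85L had differences of -0.04 and 0.09 at values well above the mark, and CEP97, which caps centrioles together with CP110, had 0.01. Without PGC replicate 3 these were -0.07, 0.21 and 0.22, and none passed by limma. The other genes that did not pass, CEP83, CEP120, CEP162, CEP350 and CEP57L1, had means below the mark in both fractions and differences between -0.34 and 0.13.

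The spread of the PGC arrays was wider in these genes than in the array as a whole. The median SD of the 55 genes was 0.33 in PGC arrays and 0.19 in GSC arrays, against 0.23 and 0.16 over all genes. In 42 of the 55 the PGC SD was the larger. The matching share of all genes is not given, and their median SD was also larger in PGC, so this count is a description alone. PGC replicate 3 was the lowest PGC array in 42 of the 55 genes (76.4%, against 37.1% of all genes). It was so in 68.2% of the 22 genes of the families called higher and in 64.4% of all genes called higher. The median of its value minus the mean of PGC replicates 1 and 2 was -0.45 over the 55 genes, 0.02 over all genes and -0.29 over the 2923 genes called higher. PGC replicates 1 and 2 both lay above every GSC array in 29 of the 55 genes (52.7%, against 27% of all genes), and both below every GSC array in 2 (3.64%, against 26.3%). In these 29, PGC replicate 3 was also above every GSC array in 18, within the GSC range in 8 and below it in 3. Among the 3515 such genes of all genes, these counts were 2562, 747 and 206.

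The position of that array varied by class. PGC replicate 3 was the lowest of all 9 arrays in 14 of the 31 CEP genes (45.2%) and in none of the 24 IFT, BBS and TCTN genes, where 13% of all genes had it lowest. The 14 were CEP44, CEP55, CEP78, CEP83, CEP89, CEP95, CEP97, CEP120, CEP128, CEP135, CEP152, CEP170, CEP250 and CEP290. In CEP83 (1.27), CEP89 (2.30), CEP120 (2.23), CEP128 (2.30) and CEP290 (2.14) that lowest value lay below the reporter mark of 2.88. Means below the mark in both fractions occurred in 7 CEP genes and BBS10, and in no IFT or TCTN gene. Measured as the median deviation from the GSC mean, the IFT genes stood at 0.76, 0.47 and 0.10 in the 3 PGC arrays, the BBS genes at 0.75, 0.48 and 0.33, and the CEP genes at 0.37, 0.27 and -0.15. This split was seen in the data and has no test. A low PGC replicate 3 was not confined to CEP symbols. Over the 35 centriole and pericentriolar genes without the prefix, followed below, means were 5.49, 5.34 and 4.94 in the PGC arrays. In the GSC arrays they were 5.16 to 5.38. Over the 20 intraflagellar transport and BBSome genes without the prefixes, means were 5.33, 5.25 and 4.66 in the PGC arrays and 4.58 to 4.89 in the GSC arrays. As a sign of RNA quality, control probe sets near the 3′ and 5′ ends of chicken transcripts were compared. For actin the 3′ minus 5′ log2 signal was 0.92, 0.88 and 0.51 in the PGC arrays and 0.16 to 0.35 in the GSC arrays. For GAPDH it was -0.13 to -0.01 in the PGC arrays and -0.17 to 0.05 in the GSC arrays, and for elongation factor 1-alpha 0.40 to 0.50 in the PGC arrays and 0.34 to 0.48 in the GSC arrays. The part of RNA quality or of other cells in the fraction in these values was not tested.

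**Figure D4:**
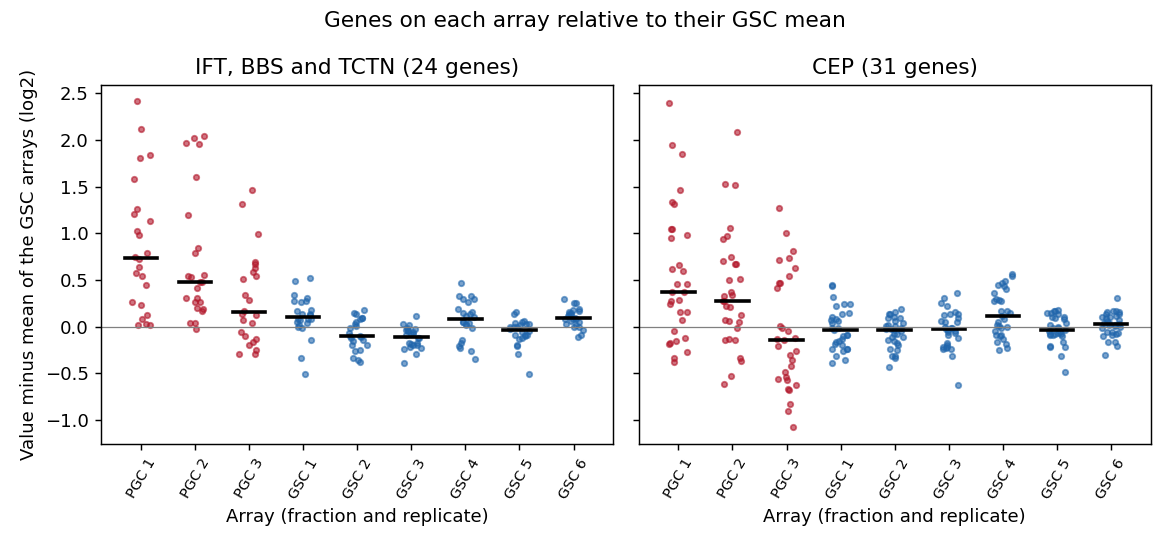
Deviation of each gene from its GSC mean (log2) on each of the 3 PGC and 6 GSC arrays, with IFT, BBS and TCTN genes in the left panel, CEP genes in the right panel, 1 point per gene and medians drawn as lines. CEP genes have a median of 0.37 and 0.27 on PGC replicates 1 and 2 and of -0.15 on PGC replicate 3.

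Other probe sets of the same genes, which did not stand for them, are described here. Of 14 called genes with more than 1 probe set, 8 had another probe set called in the same direction, none had one called in the opposite direction, and 6 had no other call. The other probe sets of called genes that were not dim numbered 17, of which 16 differed in the same direction and 15 passed in it by limma over all 38439 probe sets. Not dim means a mean at or above the mark in PGC, GSC or both. Probe sets of BBS4, CEP57 and IFT88 thus entered through PGC alone, with GSC means of 2.84, 2.65 and 2.67. Their agreement as rises is partly built in. Matching shares over all called genes are not given, here or for the 8 of 14, so these counts are a description alone. Across the 138 probe sets of the family, 41 were called higher and 2 lower, against 13.8% and 14.6% of all 38439 probe sets. All 138 name 1 gene, whereas 27168 of the 38439 do, so the bases are unlike. Of the 138, 53 had means below the reporter mark in both fractions. Among genes that did not pass, 5 had another probe set that did: BBS7, CEP55 and IFT20 had one called higher, BBS9 had 2, and CEP170 had one called lower. Probe sets of 1 gene share the RNA of the arrays and are not replicates.

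**Figure D5:**
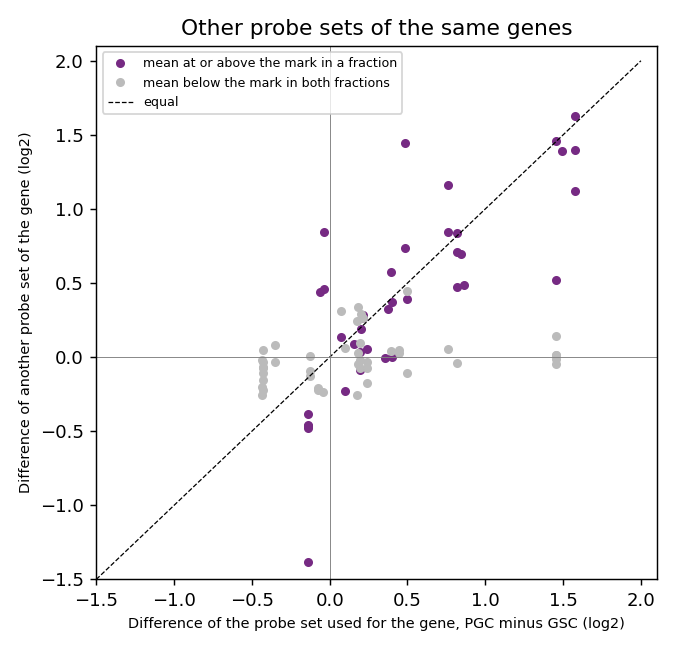
Log2 difference (PGC minus GSC) of the other probe sets of each gene on the vertical axis against that of the brightest probe set on the horizontal axis, with dim probe sets drawn apart. Dim means a mean below the reporter mark in both fractions, so a probe set could enter through the PGC fraction alone. Of the 17 other probe sets of called genes that were not dim, 16 share the sign of the brightest one, which is partly built in.

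Genes of the same machinery that carry other symbols were followed as lists. Shares of all genes to set beside their counts are 22.5% higher and 19.5% lower, and 25.5% and 22.9% without PGC replicate 3. Without PGC replicate 1, 2298 of all 13009 genes were higher and 1914 lower, and without PGC replicate 2, 2613 and 2111. Of 20 measured genes of intraflagellar transport, its motors and the BBSome, 10 were higher and 1 lower, with a median log2 difference of 0.36. Those higher numbered 4 without PGC replicate 1 and 5 without PGC replicate 2, and those lower 2 without PGC replicate 2 and none without PGC replicate 3. LZTFL1, which controls the entry of the BBSome into cilia, measured 4.59, 4.36 and 3.01 in the PGC arrays and 2.09, 2.50 and 2.76 (lowest, median, highest) in the GSC arrays, a rise of at least 2.15-fold (adjusted p = 0.00152, limma). CLUAP1, the IFT-B subunit also called IFT38, measured 6.99, 6.64 and 6.25 in the PGC arrays and 5.22, 5.51 and 5.78 (lowest, median, highest) in the GSC arrays, and was 2.17-fold higher (adjusted p = 0.000289). KIF3A, a motor subunit of kinesin-2, measured 6.30, 6.14 and 5.52 in the PGC arrays and 4.86, 5.04 and 5.21 (lowest, median, highest) in the GSC arrays, and was 1.94-fold higher (adjusted p = 0.000583). The fall was that of TTC26, the IFT-B subunit also called IFT56, at -0.39 (adjusted p = 0.0239, limma). Its call was lost without PGC replicate 1 (-0.32) or PGC replicate 3 (-0.35). TRAF3IP1 and HSPB11, also of IFT-B, were higher by 0.78 (adjusted p = 0.0316) and 0.54 (adjusted p = 0.0282). TTC30B, another IFT-B subunit, did not pass, at -0.14 (adjusted p = 0.305). TRAF3IP1 was not called without PGC replicate 1 (0.46) or PGC replicate 2 (0.75), and HSPB11 was not called without PGC replicate 1 (0.41). Of the IFT-A subunits in this list, WDR35 was higher by 0.96 (adjusted p = 0.0207), but was not called when PGC replicate 1 (0.67) or PGC replicate 2 (0.79) was left out. WDR19 and TTC21B did not pass, at 0.13 (adjusted p = 0.673) and -0.76 (adjusted p = 0.0522). TTC21B was called lower when PGC replicate 1 (-1.03, adjusted p = 0.0249) or PGC replicate 2 (-0.99, adjusted p = 0.0345) was left out, and stood at -0.28 without PGC replicate 3.

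Of 18 measured transition zone and ciliary membrane genes, 5 were higher and 1 was lower, with a median of 0.37. The count of higher genes was 3 without PGC replicate 1 or PGC replicate 2 and 10 without PGC replicate 3, and that of lower genes was 2 without PGC replicate 2 or PGC replicate 3. For this list and the next, shares of all genes were 22.5% higher and 19.5% lower, and 25.5% and 22.9% without PGC replicate 3. MKS1, a transition zone protein of the Meckel syndrome complex, measured 7.77, 7.54 and 7.23 in the PGC arrays and 6.49, 6.60 and 6.96 (lowest, median, highest) in the GSC arrays, and was 1.83-fold higher (adjusted p = 0.000437, limma). UNC119B, which carries myristoylated cargo into cilia, was higher by 0.71 (adjusted p = 0.00102), and INPP5E, a ciliary phosphoinositide phosphatase, by 0.65 (adjusted p = 0.00535). TULP3, the adaptor that brings membrane receptors to IFT-A, was lower at -0.64 (adjusted p = 0.00149). Of 35 measured centriole and pericentriolar genes without the CEP prefix, 3 were higher and 3 lower, with a median of 0.05. Leaving out PGC replicate 1, 2 or 3 gave 1, 5 and 10 higher genes, and leaving out any 1 of GSC replicates 3 to 6 gave 1 lower gene. CETN2, a centriolar centrin, measured 8.21, 8.26 and 7.70 in the PGC arrays and 6.60, 6.91 and 6.95 (lowest, median, highest) in the GSC arrays, and was 2.31-fold higher (adjusted p = 5.44e-05). POC1B, a centriole wall protein, was lower at -0.72 (adjusted p = 0.000877), and CETN3, another centrin, at -0.57 (adjusted p = 0.0449), a call lost in 6 of the 9 fits that left out 1 array, where it ran from -0.60 to -0.45.

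Of 8 measured transcription factors of ciliary genes, none was higher by limma, and RFX7 was lower at -0.35 (adjusted p = 0.0197). Beside this and the next lists stand 22.5% of all genes higher and 19.5% lower, and 25.5% and 22.9% without PGC replicate 3. RFX7 was not called without PGC replicate 1 (-0.26), and without PGC replicate 3 the list had 1 higher and 3 lower genes. In 5 of the 8, all arrays of both fractions were below the reporter mark. Of 11 measured markers of multiciliated cells, which bear motile cilia, 3 were higher and none lower: DNAI1 and DNAI2, outer dynein arm chains, at 1.54 and 0.53, and RSPH9, a radial spoke protein, at 1.29. Their summed linear signals were 69.7 to 87.3 in PGC arrays and 55.0 to 63.5 in GSC arrays. Below the mark were 6 of the 11 in every PGC array and 8 in every GSC array. FOXJ1, MCIDAS and GMNC, which define that cell type, were not analysed here. Of 25 proliferation genes, 4 were higher and 3 lower, with a median of 0.01. Without PGC replicate 1 these counts were 2 and 5, and without PGC replicate 3 they were 6 and 6. NDC80, a kinetochore protein, was lower at -0.96 (adjusted p = 6.54e-05), CENPE, a kinetochore motor, was lower at -0.77 (adjusted p = 0.0471, lost in 8 of the 9 fits that left out 1 array, at -0.80 to -0.45), and TYMS, the enzyme of thymidylate synthesis, was higher by 0.73 (adjusted p = 0.00056). The mean over the proliferation list was 8.06, 7.88 and 7.79 in the PGC arrays and 7.95 to 8.04 in the GSC arrays.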

How the data were processed

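Total RNA from 9 preparations was hybridised to 1 Affymetrix Chicken Genome array each. The deposited values were log2 signals per probe set. Per the submitters' processing notes, they came from RMA (version not given in the sources used here). That they are log2 was read from their range. RMA compresses low signals, so differences of dim genes can be understated, which was not tested here.

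Control probe sets were left out, which left 38439. Of these, 27168 had 1 symbol in the platform annotation, giving 13009 genes by the brightest probe set. Each was fitted on cell fraction in R 4.3.3 with limma 3.58.1 over all 9 arrays, two-sided, and adjusted by the Benjamini-Hochberg method. The fit was tested on simulated data in which both fractions had the spread of the GSC arrays. That test did not cover unequal spread. Standard errors are limma's, which pool both fractions. In 42 of the 55 genes the PGC arrays, the smaller group, had the larger SD, so pooled errors and p-values can be too small. Errors taken per fraction were 0.26 for IFT22, 0.44 for CEP192 and 0.42 for IFT80, where the pooled ones were 0.17, 0.25 and 0.26. For CEP164 the error per fraction was smaller, at 0.10 against 0.12. Calls have an adjusted p under 0.05. The reporter mark was 2.88. Where arrays of the dimmer fraction lay below it, they were set at it and the fold given as at least that size. Of 231 list symbols, 189 led to a measured gene, 3 of them by a synonym.

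The genes, lists, tests and alternatives were chosen with earlier results of these data known. Every gene of the 4 families is accounted for. Values per array follow a rule that took 16 fixed genes of the families (BBS1 among them), up to 4 rises and 4 falls per class and the 3 largest called changes per list. CEP44, CEP76, CEP78, CEP89, CEP95, CEP170, CEP170B, CEP57, CEP68, CEP131, CEP295, IFT46, IFT43, TTC26, TULP3, DNAI1, DNAI2, RSPH9 and the other genes named outside it were chosen to complete a class or a list, after their values were seen. No pairing by replicate number is stated, and the main fit used none. Deviations of same-numbered arrays of replicates 1 to 3 correlated at 0.19, -0.13 and -0.01. With so few arrays per fraction, these values cannot decide whether the samples were paired. Promoter and protein sequences were not analysed here. For arrays, their number limits the precision.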

Additional observations from a re-analysis of the deposited data

Results flagged for a closer look

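In MKS1 the GSC array of replicate 1, at 6.96, stood apart from the other 5 GSC arrays, of which the nearest was at 6.65 and the lowest at 6.49. All 3 PGC arrays lay above it. Of 37 named genes examined in this way this was the one found, and chance marks about 1 group in 20.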

How the results depend on the processing

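With 3 PGC arrays, results rested most on the PGC replicates. Of the 24 called genes of the families, 15 were called in every fit that left out 1 array. In such fits the families had 16 to 30 higher and 0 to 2 lower genes, with 4 to 10 higher for IFT, 3 to 4 for BBS, 1 for TCTN, and 8 to 15 higher and 0 to 2 lower for CEP. Counts over all genes were 2298 to 3321 higher and 1914 to 2983 lower. The other lists, as higher and lower genes, had 4 to 11 and 0 to 2 (intraflagellar transport), 3 to 10 and 1 to 2 (transition zone), 1 to 10 and 1 to 3 (centriole), 0 to 1 and 0 to 3 (transcription factors), and 2 to 6 and 2 to 6 (proliferation). With GSC replicates 1 to 3 alone, 1863 genes were higher and 1531 lower, with 14 higher and 0 lower in the families (4 IFT and 5 CEP higher), 4 higher and 0 lower in the intraflagellar transport list, 1 and 1 in the centriole list, 0 lower transcription factors and 2 higher proliferation genes. A replicate block on those arrays, although no pairing by number is stated, gave 1845 higher and 1287 lower genes. In the families it gave 15 higher and 1 lower (6 higher and 1 lower among CEP). It gave 0 lower genes in the intraflagellar transport list, 3 higher transition zone genes, and 1 and 1 in the centriole list. It also gave 0 lower transcription factors and 2 higher proliferation genes. GSC replicates 4 to 6 alone gave 1 lower gene in the families, a CEP gene, 4 and 0 in the intraflagellar transport list, 3 higher transition zone genes and 0 lower transcription factors. Array weights per fraction, which let the spread differ between fractions, kept 18 of the 24 calls of the families and lost 6. Among the higher genes, BBS4, CEP63, CEP164 and IFT74 lost theirs (adjusted p = 0.0525, 0.0832, 0.129 and 0.0591 by limma). CEP128 and CEP290 were no longer called lower. This fit gave 0 lower genes in the families, 5 and 0 in the intraflagellar transport list and 1 lower centriole gene. It gave 0 lower transcription factors and 2 higher proliferation genes. Leaving out dim probe sets, which removes CEP128 and CEP290, gave 0 lower genes in the families and 2 in the intraflagellar transport list. Quantile normalization and median centring each gave 1 lower gene in the families, a CEP gene. The first also gave 2 lower transition zone genes and 1 higher transcription factor, and the second 1 lower centriole gene. The trended robust fit gave 2 lower genes in the intraflagellar transport list and 5 lower proliferation genes. The mean of all probe sets gave 0 lower transcription factors and kept 21 of the 24 calls of the families. CEP63, CEP164 and CEP290 lost theirs (adjusted p = 0.0756, 0.143 and 0.263 by limma). In that fit BBS9 (0.42, adjusted p = 0.0292) and IFT122 (0.26, adjusted p = 0.0343) were called higher and CEP170 lower. TCTN1, which was never called, ran from -0.089 (without PGC replicate 2) to 0.25 in the fits that left out 1 array, and was -0.022 with the mean of its probe sets. The causes were not tested.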
